A study of Homo sapiens with 9 samples.

Results

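The 55 genes described here encode the machinery that copies DNA and the regulators that take a cell past the G1 to S boundary. They were followed in a leukemia line with less or with more of the RNA-binding protein RBM5. With RBM5 overexpression 13 genes, among them MCM4, MCM2, PCNA and FEN1, fell against control cells (23.6%, near the 20.2% of all genes tested) and 6 genes, among them RFC4, ORC5 and PRIM1, rose (10.9%, against 19.8% of all genes). All of these changes were below 1 on the log2 scale. With the RBM5 guide no gene of the set was called (against 2.51% of all genes). The 3 libraries of that group differed from each other more for these genes than for genes in the same range of levels. The genes were listed by symbol, with earlier results of these data known. All 55 were found among the 57820 genes of the tables, and all 55 passed the filter on low counts in each of the 3 comparisons.

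Replication starts from origins that are licensed in G1, when the origin recognition complex (ORC1 to ORC6) with CDC6 and CDT1 loads the MCM2-7 helicase and geminin (GMNN) blocks a repeat of this step. In S phase CDC45 and the GINS complex activate the helicase, polymerase alpha with primase starts each strand, replication factor C (RFC) loads the sliding clamp PCNA, and polymerases delta and epsilon copy the DNA behind it. Cyclin E and the E2F factors drive entry into S phase, and many of these genes are known E2F targets whose mRNA is most abundant around the G1 to S transition of dividing cells.

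MOLM13 is an established acute myeloid leukemia line with a rearranged KMT2A (MLL) gene, kept here in RPMI-1640 with serum and labelled as untreated. The study's methods describe lines that stably carry Cas9 under blasticidin selection, with puromycin selection of the cells that took up a guide. The RBM5 KO cells carried the guide RBM5-sg1, the RBM5 OE cells a lentiviral vector with RBM5 cDNA joined to Venus through P2A, and the CTRL cells a non-targeting guide, with 3 libraries per group that the labels call biological replicates. The labels give no day after transduction, the study's text gives more than one, and no clone is named. The labels do not say how the cultures of a group were kept apart, so p-values measure the spread between these libraries. CTRL and RBM5 KO cells carried a guide and RBM5 OE cells a cDNA vector. The vector and RBM5 therefore cannot be told apart where RBM5 OE is compared with either group.

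RBM5 itself had 70.5, 73.9 and 79.4 CPM in RBM5 KO, 379.8, 414 and 416 CPM in RBM5 OE and 122, 117 and 113 CPM in CTRL, and no group overlapped another. Its log2 fold change against CTRL was −0.65 ± 0.084 (SE, adjusted p = 0.00692) in RBM5 KO, a partial loss of the transcript, and 1.78 ± 0.068 (SE, adjusted p = 4.11e-08) in RBM5 OE. Reads of the vector's coding sequence count there with those of the endogenous gene. The transcript level does not give the amount of RBM5 protein, which the study reports as reduced by its RBM5 guides, RBM5-sg1 among them. CPM are counts scaled to a common library total and corrected by TMM factors. Fold changes are log2 values with their standard error (SE). Every adjusted p comes from edgeR's quasi-likelihood test, adjusted by Benjamini-Hochberg across the genes of that comparison, and calls rest on a threshold of 0.05. The libraries held 25522936 to 27871975 counts. The myeloid markers fixed for this line summed to 3104 to 3548 TPM in RBM5 KO, 1951 to 2010 TPM in RBM5 OE and 2543 to 2683 TPM in CTRL. LYZ, which encodes lysozyme, carried most of these differences. It had 1864 to 2070 TPM in RBM5 KO, 481 to 499 TPM in RBM5 OE and 1090 to 1279 TPM in CTRL. The other markers did not all move the same way. SPI1 and HOXA9 were higher and CD33 and CEBPA lower in all RBM5 OE libraries than in all CTRL libraries. CD33 and MPO were higher and FLT3 and CEBPA lower in all RBM5 KO libraries than in all CTRL libraries. CSF1R, CSF3R and MEIS1 overlapped CTRL in both groups. The sums of B cell, T cell, erythroid, and fibroblast and epithelial markers were at most 7.91 TPM in any library. HBB and EPCAM were at 0 in all 9 libraries.

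For these genes 2 libraries stood apart. Both were already known to deviate in these same data when the genes were followed, so the counts below describe them and test nothing. RBM5 KO replicate 1 was the highest library of its group for 53 of the 55 genes, CTRL replicate 3 was the highest of its group for 53 of 55, and 51 of 55 (92.7%) were highest in both, against 19.6% of all 14754 genes tested. Together the 55 genes took 0.701, 0.482 and 0.458% of the counts in the RBM5 KO libraries, 0.514, 0.515 and 0.514% in the RBM5 OE libraries and 0.53, 0.533 and 0.667% in the CTRL libraries. RBM5 KO replicate 1 therefore held the largest share of the 9 libraries, RBM5 KO replicates 2 and 3 the smallest, and the RBM5 OE libraries hardly differed. The median gene of the set lay 0.60 above the rest of its group in RBM5 KO replicate 1 and 0.29 above in CTRL replicate 3, in log2 CPM.

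In RBM5 KO and CTRL, but not in RBM5 OE, this unevenness was wider than that of genes in the same range of levels. The median range within a group was 0.63 for the set in RBM5 KO, 0.13 in RBM5 OE and 0.32 in CTRL, against 0.25, 0.14 and 0.21 for 9338 genes. These were all tested genes with a mean level between the lowest and the highest of the set, the set included, without closer matching. The same 2 libraries were highest of their groups for 29 of 30 mitosis genes and for 54 of 76 other replication and G1-S genes. RBM5 KO replicate 1 also had the lowest share of mitochondrial counts of its group (6.45%, against 7.05 and 6.75%), as did CTRL replicate 3 (6.23%, against 6.74 and 6.63%). The 10 most abundant genes took 8.33% of counts in RBM5 KO replicate 1 (9.54 and 9.14% in its group) and 8.43% in CTRL replicate 3 (9.1 and 9.14%). Low shares were not particular to these libraries. RBM5 OE had 5.995, 6.035 and 5.978% mitochondrial counts, and 8.429, 8.403 and 8.321% in the 10 most abundant genes, without a raised level of the set. What part these differences between libraries had in the results below was not tested. In RNA of whole cultures, fewer cells in S phase and less RNA per cell cannot be told apart.

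**Figure D1:**
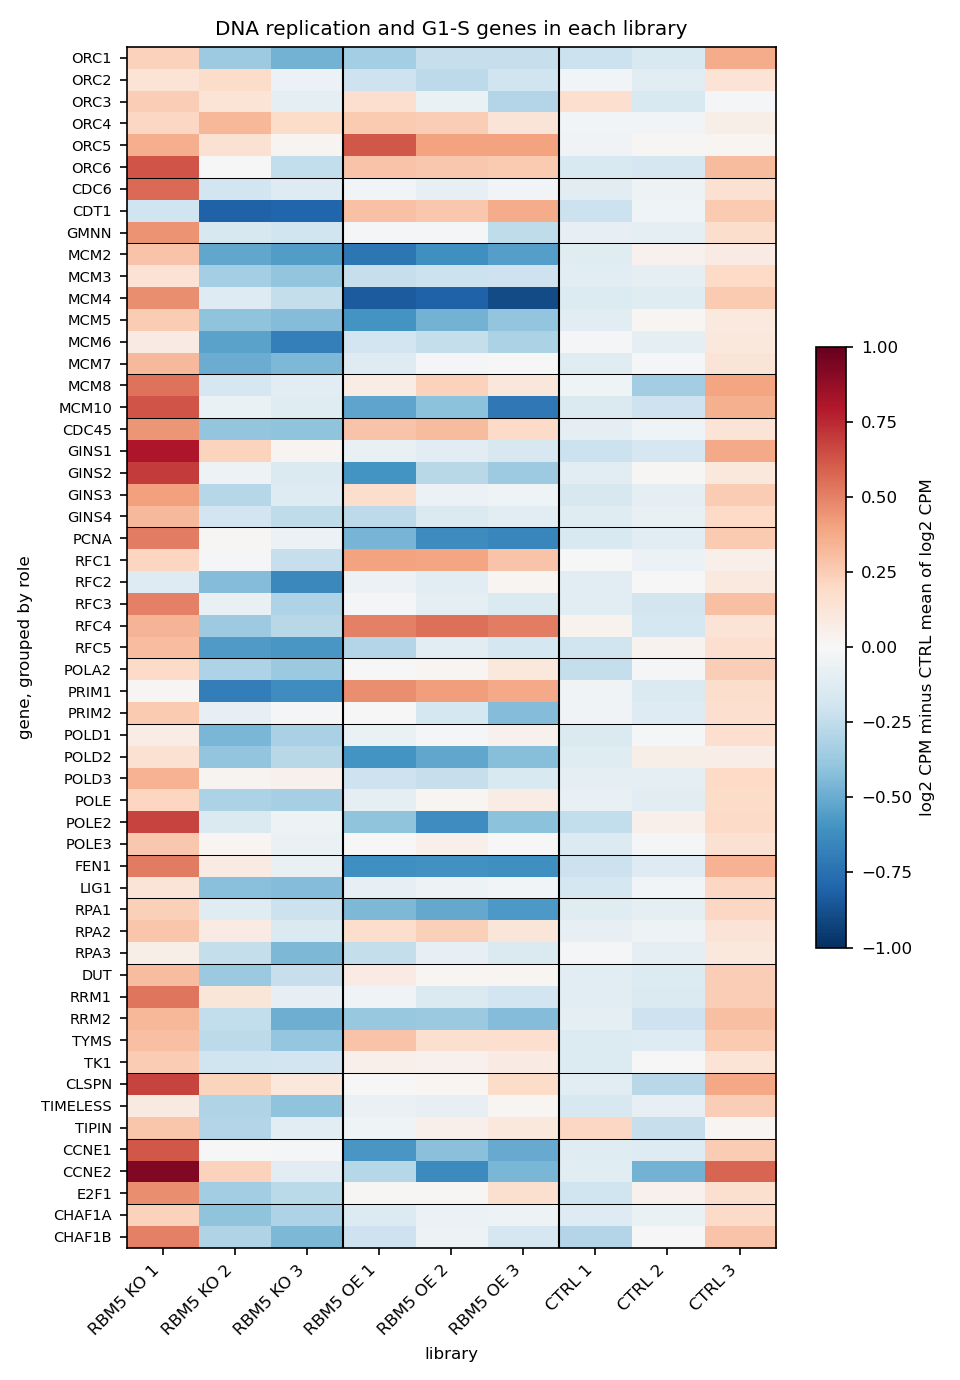
Level of each of the 55 genes in each of the 9 libraries, as log2 CPM minus the mean log2 CPM of the 3 CTRL libraries (red higher, blue lower), with lines between groups of libraries and between role groups. The columns of RBM5 KO replicate 1 and CTRL replicate 3 are mostly red, those of RBM5 KO replicates 2 and 3 mostly blue, and the 3 RBM5 OE columns resemble each other, with MCM4, PCNA and FEN1 low and RFC4, PRIM1 and ORC5 high.

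By level per length, MCM4 was the most abundant gene of the set in CTRL at 418 TPM, followed by PCNA at 309 TPM, MCM7 at 229 TPM, POLD2 at 186 TPM and RRM2 at 162 TPM. CHAF1B at 6.38 TPM and MCM8 at 8.01 TPM were the least abundant. In RBM5 OE the mean of MCM4 was 233 TPM, next to 230.4 TPM for MCM7, so these 2 helicase subunits stood at like levels there.

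In the RBM5 KO against CTRL comparison, which sets cells with the RBM5 guide against control cells, 0 of 55 genes were called at an adjusted p under 0.05. Of the 14218 genes tested 2.51% were called (0.837% higher and 1.67% lower). At an unadjusted p under 0.05 there were 3 of 55, against 16.8% of all genes. DESeq2 called 1 of 55, CDT1 as lower, and limma-voom 0. No gene of the set passed both the adjusted p and an absolute log2 fold change of 1, as 1.04% of all genes did. The log2 fold changes ran from −0.59 for CDT1 to 0.37 for GINS1, with 26 positive and 29 negative, and their median was −0.02 against 0.01 for all genes tested. Only ORC4, ORC5 and RFC2 had groups that did not overlap, 3 of 55 against 22.9% of all genes. The median standard error of a gene of the set was 0.18 here and 0.097 in RBM5 OE against CTRL, so a change of a size called there could go uncalled here.

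The RBM5 KO libraries did not move as one group. RBM5 KO replicate 1 was above all 3 CTRL libraries for 43 of 55 genes (78.2%, against 32.8% of all genes). Replicates 2 and 3 were both below all 3 CTRL libraries for 29 of 55 (52.7%, against 21% of all genes). They were both above them for 2 (3.64%, against 21.7% of all genes). Without RBM5 KO replicate 1 and CTRL replicate 3, the other 4 libraries gave 13 genes called lower (23.6%, against 6.68% of all genes) and 2 called higher (3.64%, against 6.94%), with a median of −0.13. At an unadjusted p under 0.05 there were then 25 of 55, against 27.1% of all genes. Both libraries were set aside because of their level of genes such as these, so these counts are a description, not support for a fall.

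In RBM5 OE against CTRL, 19 of 55 genes were called (34.5%), where 40.1% of the 14370 genes tested were called. Of the set 6 genes rose (10.9%, against 19.8% of all genes) and 13 fell (23.6%, against 20.2%). The median log2 fold change was −0.09 against 0.01 for all genes tested, and no gene also passed an absolute log2 fold change of 1, against 5.89% of all genes. For 24 of 55 genes the groups did not overlap (51.7% of all genes): RBM5 OE was below all CTRL libraries for 17 and above them for 7. The share of the set that was called was thus near the background, and so was the share that fell. Without CTRL replicate 3 the counts were 11 higher (20%, against 20.7% of all genes) and 13 lower (23.6%, against 21.2%), with a median of 0.01. The calls that held in all 16 alternative analyses numbered 11 of 19: ORC5, RFC1 and RFC4 higher, and MCM2, MCM4, MCM5, PCNA, POLD2, FEN1, RPA1 and CCNE1 lower.

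**Figure D2:**
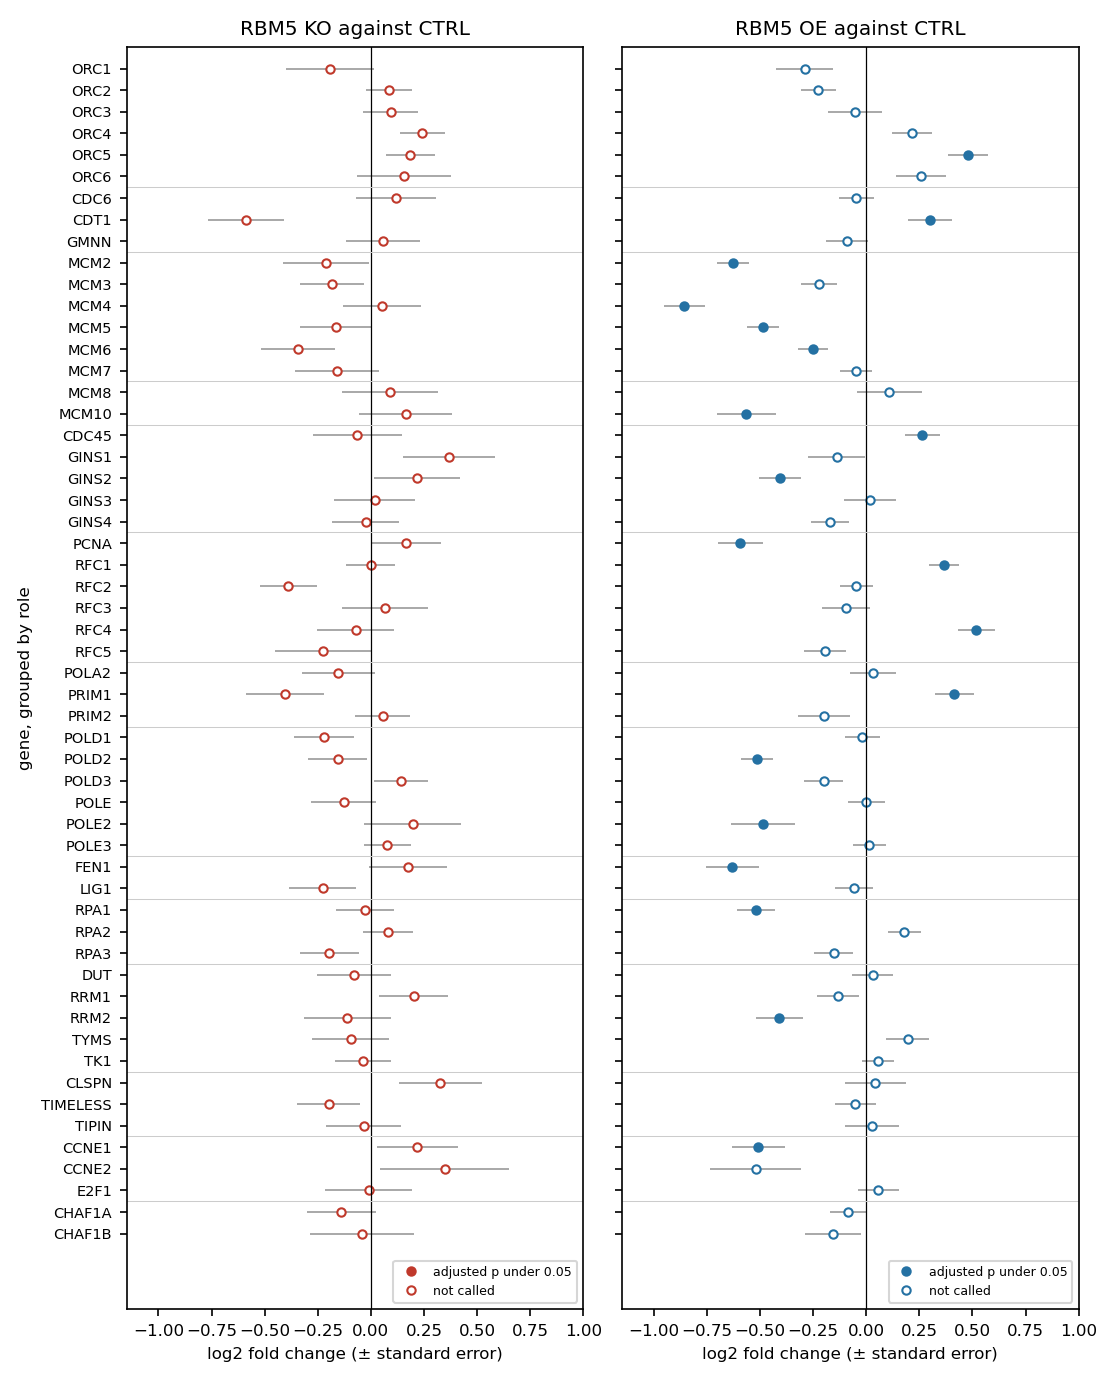
Log2 fold change with its standard error for each of the 55 genes, grouped by role, in RBM5 KO against CTRL (left, red) and RBM5 OE against CTRL (right, blue); filled points had an adjusted p under 0.05 in edgeR's quasi-likelihood test. No point is filled on the left, where error bars are long, and 19 are filled on the right, from −0.86 for MCM4 to 0.52 for RFC4.

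Of the origin recognition complex, which marks origins for licensing, 1 of 6 subunits rose in RBM5 OE and none fell, where 19.8% of all genes rose and 20.2% fell. ORC5 had 20.9, 18.1 and 16.6 CPM in RBM5 KO, 25.1, 21.5 and 21.5 CPM in RBM5 OE and 15.9, 16.4 and 16.5 CPM in CTRL. All RBM5 OE libraries lay above all others, and its log2 fold change in RBM5 OE against CTRL was 0.48 ± 0.094 (SE, adjusted p = 0.0019). ORC4 had 16.9, 18.4 and 16.6 CPM in RBM5 KO, 17.5, 17.4 and 16.0 CPM in RBM5 OE and 14.3, 14.3 and 15.2 CPM in CTRL. Both other groups were above CTRL in all libraries, but neither 0.24 ± 0.11 (SE, adjusted p = 0.295) in RBM5 KO nor 0.22 ± 0.094 (SE, adjusted p = 0.0897) in RBM5 OE was called. ORC1, the subunit whose level follows the cell cycle, had 70.5, 46.8 and 43.4 CPM in RBM5 KO, 47.4, 51.3 and 51.2 CPM in RBM5 OE and 51.7, 54.2 and 77.7 CPM in CTRL. RBM5 OE was below CTRL, and RBM5 KO replicate 1 and CTRL replicate 3 stood high in their groups. Its log2 fold change was −0.19 ± 0.21 (SE, adjusted p = 0.69) in RBM5 KO and −0.29 ± 0.13 (SE, adjusted p = 0.103) in RBM5 OE. ORC2, ORC3 and ORC6 were at −0.22, −0.05 and 0.26 in RBM5 OE, without a call.

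Among the licensing factors and their inhibitor, CDT1 had the largest rise of the set in RBM5 OE over RBM5 KO. CDT1 loads the helicase and is destroyed in S phase. It lies on chromosome 16 of GRCh37 from 88870197 to 88875666 (plus strand). CDT1 had 134, 87.3 and 88.3 CPM in RBM5 KO, 188, 185 and 198 CPM in RBM5 OE and 132, 149 and 184 CPM in CTRL. RBM5 OE was above every other library, RBM5 KO replicates 2 and 3 were below every other library, and RBM5 KO replicate 1 lay within the CTRL range. The log2 fold change was −0.59 ± 0.18 (SE, adjusted p = 0.137) in RBM5 KO, 0.30 ± 0.10 (SE, adjusted p = 0.0362) in RBM5 OE and 0.89 ± 0.16 (SE, adjusted p = 0.00104) in RBM5 OE against RBM5 KO. The rise over CTRL was called in 8 of 16 alternatives, and the difference from RBM5 KO in all 20. CDC6 (log2 fold change −0.05 in RBM5 OE) and geminin (−0.09) were not called in any of the 3 comparisons.

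Of the MCM2-7 helicase, the ring that unwinds DNA, 4 of 6 subunits fell in RBM5 OE against CTRL and none rose, beside the 20.2% of all genes that fell and 19.8% that rose. MCM4 had 809, 537 and 497 CPM in RBM5 KO, 329, 334 and 316 CPM in RBM5 OE and 533, 539 and 702 CPM in CTRL. Every RBM5 OE library held less than every other library, the spread within RBM5 OE was small, and the log2 fold change of −0.86 ± 0.098 (SE, adjusted p = 6.29e-05) was the largest of the set. MCM2 (chromosome 3 of GRCh37, 127317253 to 127341279, plus strand) had 323, 184 and 179.6 CPM in RBM5 KO, 161, 173 and 181 CPM in RBM5 OE and 243, 273 and 279.7 CPM in CTRL. All RBM5 OE libraries were below CTRL, RBM5 KO replicate 1 was above CTRL, and RBM5 KO replicates 2 and 3 lay beside RBM5 OE. Its log2 fold change was −0.63 ± 0.075 (SE, adjusted p = 7.71e-05) in RBM5 OE and −0.21 ± 0.20 (SE, adjusted p = 0.651) in RBM5 KO.

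The other subunits were less affected. MCM6 (chromosome 2, 136597196 to 136634013, minus strand) had 227, 149 and 134 CPM in RBM5 KO, 188, 182 and 173 CPM in RBM5 OE and 212, 203 and 232 CPM in CTRL. RBM5 OE lay below CTRL by a narrow margin, and RBM5 KO replicates 2 and 3 lay lower still. In RBM5 OE it fell by 0.25 on the log2 scale (adjusted p = 0.015), a call that held in 11 of 16 alternatives, and in RBM5 KO it was at −0.34 (adjusted p = 0.364). MCM5 fell in RBM5 OE at −0.49 ± 0.077 (SE, adjusted p = 0.000509). MCM3 at −0.22 (adjusted p = 0.0546) and MCM7 at −0.05 (adjusted p = 0.636) were not called in RBM5 OE.

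In RBM5 KO without the 2 libraries that stand apart, 5 of the 6 helicase subunits were called lower, where 6.68% of all genes were. Since those libraries were set aside for their level of such genes, this is a description. MCM6 was at −0.55 (adjusted p = 0.000119), MCM2 at −0.50 (adjusted p = 0.000361), MCM7 at −0.41 (adjusted p = 0.00249), MCM5 at −0.37 (adjusted p = 0.00588) and MCM3 at −0.27 (adjusted p = 0.0492). MCM4, the subunit with the largest fall in RBM5 OE, was the one not called there, at −0.05 (adjusted p = 0.756). That contrast between MCM4 and the other subunits was not tested.

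**Figure D3:**
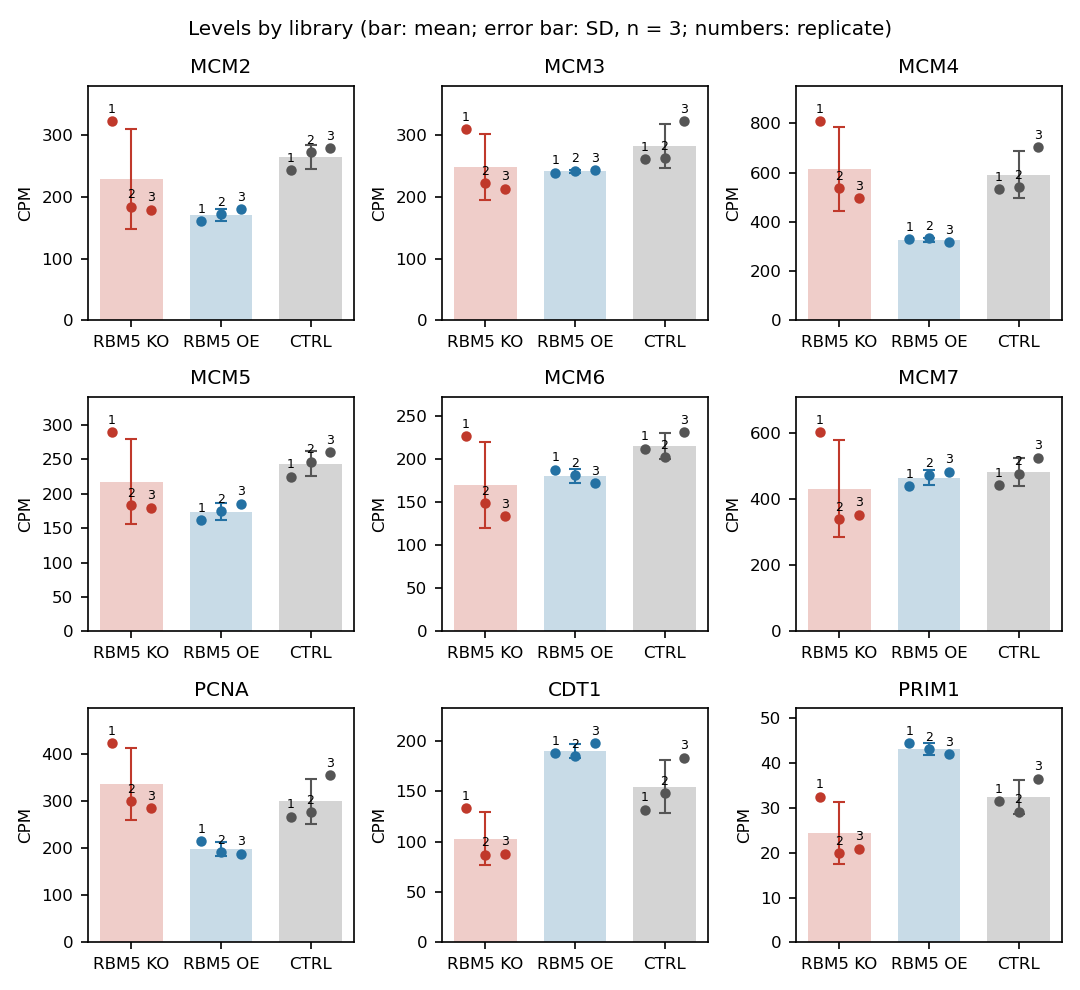
CPM of the 6 MCM2-7 subunits, PCNA, CDT1 and PRIM1 in each library, with bars for group means and error bars for SD (n = 3 per group), in the order RBM5 KO, RBM5 OE and CTRL; numbers beside points give the replicate. RBM5 OE points lie close together, below all CTRL points for MCM2, MCM3, MCM4, MCM5, MCM6 and PCNA and above them for CDT1 and PRIM1, and RBM5 KO replicate 1 lies far above RBM5 KO replicates 2 and 3 in every panel.

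Both MCM proteins outside the ring had modest levels. MCM10, which helps to activate the loaded helicase, had 71.4, 44.03 and 42.5 CPM in RBM5 KO, 32.2, 34.8 and 28.2 CPM in RBM5 OE and 41.7, 40.0 and 59.2 CPM in CTRL. RBM5 OE was below all other libraries and the log2 fold change was −0.56 ± 0.14 (SE, adjusted p = 0.00757) in RBM5 OE and 0.16 ± 0.22 (SE, adjusted p = 0.754) in RBM5 KO. MCM8, which works with MCM9 in homologous recombination, had 33.3, 20.4 and 21.2 CPM in RBM5 KO, 24.1, 26.9 and 24.8 CPM in RBM5 OE and 22.2, 18.0 and 30.1 CPM in CTRL. It was among the 5 genes with the widest range within CTRL (0.74 in log2 CPM), and was at 0.11 (adjusted p = 0.604) in RBM5 OE.

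CDC45 and GINS, which turn the loaded ring into an active helicase, did not move together. CDC45 had 61.4, 34.3 and 34.2 CPM in RBM5 KO, 54.9, 56.1 and 51.6 CPM in RBM5 OE and 42.2, 43.8 and 49.5 CPM in CTRL. RBM5 OE was above CTRL in all libraries and RBM5 KO lay on both sides of it. CDC45 was higher in RBM5 OE at 0.26 ± 0.081 (SE, adjusted p = 0.0227), a call kept in 9 of 16 alternatives. GINS2 had 48.3, 28.6 and 26.9 CPM in RBM5 KO, 19.7, 24.5 and 23.1 CPM in RBM5 OE and 27.4, 29.9 and 31.9 CPM in CTRL. All RBM5 OE libraries were below all others, and the log2 value was −0.41 ± 0.100 (SE, adjusted p = 0.00712). GINS1 had 90.4, 60.3 and 52.8 CPM in RBM5 KO, 49.1, 48.0 and 46.2 CPM in RBM5 OE and 44.5, 46.0 and 67.3 CPM in CTRL. The range within CTRL was 0.60 in log2 CPM, and RBM5 OE was below all RBM5 KO libraries. GINS1 was called in none of the 3 comparisons: 0.37 (adjusted p = 0.442) in RBM5 KO, −0.14 (adjusted p = 0.445) in RBM5 OE and −0.51 (adjusted p = 0.0546) between RBM5 OE and RBM5 KO. GINS3 and GINS4 were at 0.02 and −0.17 in RBM5 OE and were not called.

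The clamp fell while parts of its loader rose. PCNA (chromosome 20 of GRCh37, 5095599 to 5107272, minus strand) had 423, 299.8 and 285 CPM in RBM5 KO, 215, 192 and 188 CPM in RBM5 OE and 267, 276 and 355 CPM in CTRL. Its RBM5 OE libraries were all below those of both other groups, with a log2 fold change of −0.59 ± 0.10 (SE, adjusted p = 0.00098) in RBM5 OE and 0.17 ± 0.16 (SE, adjusted p = 0.664) in RBM5 KO. RFC4, a small subunit of the loader, had 39.3, 24.1 and 25.5 CPM in RBM5 KO, 43.9, 45.3 and 44.3 CPM in RBM5 OE and 31.8, 27.5 and 34.1 CPM in CTRL. RBM5 OE was above all other libraries, and 0.52 ± 0.088 (SE, adjusted p = 0.000783) in RBM5 OE against CTRL was the largest rise of the set. RFC1, the large subunit, had 73.4, 62.7 and 54.0 CPM in RBM5 KO, 83.8, 83.1 and 77.3 CPM in RBM5 OE and 63.4, 60.9 and 65.5 CPM in CTRL. RBM5 OE was again highest throughout, at 0.37 ± 0.069 (SE, adjusted p = 0.00159).

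Against CTRL the remaining loader subunits did not follow RFC1 and RFC4, though RFC2 was called higher in RBM5 OE against RBM5 KO (0.34, adjusted p = 0.0364). RFC2 had 43.2, 34.9 and 30.2 CPM in RBM5 KO, 45.4, 43.97 and 47.8 CPM in RBM5 OE and 43.9, 47.3 and 50.6 CPM in CTRL. Its RBM5 KO libraries were all below CTRL, while RBM5 OE overlapped CTRL, and the log2 fold change was −0.39 ± 0.13 (SE, adjusted p = 0.184) in RBM5 KO and −0.05 ± 0.078 (SE, adjusted p = 0.672) in RBM5 OE. RFC3 at −0.09 (adjusted p = 0.541) and RFC5 at −0.19 (adjusted p = 0.146) were not called in RBM5 OE.

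Of the primase and polymerase alpha genes, PRIM1, the catalytic primase subunit, had 32.4, 19.9 and 20.9 CPM in RBM5 KO, 44.4, 43.0 and 41.9 CPM in RBM5 OE and 31.5, 29.1 and 36.4 CPM in CTRL. RBM5 OE was above all others, RBM5 KO replicates 2 and 3 were below all others, and RBM5 KO replicate 1 lay among the CTRL libraries, an order of libraries like that of CDT1. Its log2 fold change was 0.42 ± 0.090 (SE, adjusted p = 0.00361) in RBM5 OE and −0.41 ± 0.18 (SE, adjusted p = 0.305) in RBM5 KO. POLA2 and PRIM2 were at 0.03 (adjusted p = 0.847) and −0.20 (adjusted p = 0.223) in RBM5 OE.

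Among subunits of polymerases delta and epsilon, 2 of 6 fell in RBM5 OE and none rose, against 20.2% and 19.8% of all genes. POLD2, an accessory subunit of polymerase delta, had 162, 111 and 120.4 CPM in RBM5 KO, 96.5, 102 and 109 CPM in RBM5 OE and 134, 152 and 153 CPM in CTRL. RBM5 OE was below all others, at −0.51 ± 0.076 (SE, adjusted p = 0.000318) against CTRL. POLE2, an accessory subunit of polymerase epsilon, was the gene of the set with the fewest counts (a mean of 6.17 CPM in RBM5 OE and 8.64 CPM in CTRL). It was at −0.48 ± 0.15 (SE, adjusted p = 0.0232) in RBM5 OE, a call kept in 13 of 16 alternatives. POLD1, the catalytic subunit of polymerase delta, had 300.3, 208 and 228 CPM in RBM5 KO, 272, 280.2 and 294 CPM in RBM5 OE and 257, 280.3 and 320.0 CPM in CTRL. Neither −0.02 ± 0.081 (SE, adjusted p = 0.877) in RBM5 OE nor −0.22 ± 0.14 (SE, adjusted p = 0.472) in RBM5 KO was called, and POLD3, POLE and POLE3 lay between −0.20 and 0.01 in RBM5 OE without a call.

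Okazaki fragments, the short pieces of the lagging strand, are trimmed by FEN1 and joined by LIG1. FEN1 had 141, 104 and 93.3 CPM in RBM5 KO, 64.4, 64.6 and 64.5 CPM in RBM5 OE and 84.6, 89.9 and 125 CPM in CTRL. The RBM5 OE libraries nearly coincided below all others, and the log2 fold change was −0.63 ± 0.12 (SE, adjusted p = 0.00203) in RBM5 OE and 0.17 ± 0.18 (SE, adjusted p = 0.682) in RBM5 KO. LIG1 had 144, 98.4 and 97.5 CPM in RBM5 KO, 125, 127 and 129 CPM in RBM5 OE and 117, 129 and 152 CPM in CTRL. The groups overlapped, at −0.06 ± 0.089 (SE, adjusted p = 0.633) in RBM5 OE and −0.23 ± 0.16 (SE, adjusted p = 0.522) in RBM5 KO.

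Replication protein A coats single-stranded DNA. RPA1, its large subunit, had 172, 134 and 125 CPM in RBM5 KO, 107, 102 and 97.8 CPM in RBM5 OE and 134, 137 and 168 CPM in CTRL. Every RBM5 OE library was below every other library, at −0.52 ± 0.090 (SE, adjusted p = 0.000914) against CTRL. RPA3, its small subunit, had 23.7, 19.3 and 16.7 CPM in RBM5 KO, 19.3, 21.5 and 20.5 CPM in RBM5 OE and 22.5, 21.3 and 24.5 CPM in CTRL. The groups overlapped, at −0.15 ± 0.091 (SE, adjusted p = 0.203) in RBM5 OE and −0.20 ± 0.14 (SE, adjusted p = 0.524) in RBM5 KO. RPA2 was at 0.18 (adjusted p = 0.0839) in RBM5 OE. Of the 3 subunits 1 therefore fell and none rose, where 20.2% of all genes fell and 19.8% rose.

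Among the genes of nucleotide supply, RRM2, the small subunit of ribonucleotide reductase, had 253, 170.2 and 144 CPM in RBM5 KO, 155, 156 and 149 CPM in RBM5 OE and 189, 174 and 248 CPM in CTRL. RBM5 OE was below CTRL in all libraries and within the RBM5 KO range, at −0.41 ± 0.11 (SE, adjusted p = 0.0123), called in 13 of 16 alternatives. RRM1, the large subunit of the same enzyme, had 166, 125 and 108 CPM in RBM5 KO, 112, 104 and 100.4 CPM in RBM5 OE and 107, 104 and 136 CPM in CTRL. The groups overlapped, and RRM1 was at −0.13 ± 0.10 (SE, adjusted p = 0.315) in RBM5 OE and 0.20 ± 0.16 (SE, adjusted p = 0.579) in RBM5 KO. Thymidylate synthase (TYMS), thymidine kinase (TK1) and dUTPase (DUT) were at 0.20, 0.06 and 0.03 in RBM5 OE, none of them called.

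None of the 3 fork protection genes was called against CTRL, where 2.51% of all genes were called in RBM5 KO and 40.1% in RBM5 OE. TIMELESS had 125, 95.1 and 88.6 CPM in RBM5 KO, 112, 111 and 119 CPM in RBM5 OE and 105, 111 and 139 CPM in CTRL. Its groups overlapped, with −0.05 ± 0.098 (SE, adjusted p = 0.714) in RBM5 OE. CLSPN, the adaptor of the replication checkpoint kinase, had 43.95, 32.1 and 29.5 CPM in RBM5 KO, 27.5, 27.8 and 31.3 CPM in RBM5 OE and 25.4, 22.7 and 36.0 CPM in CTRL. Its range within CTRL was 0.66 in log2 CPM, the groups overlapped, and it was at 0.33 ± 0.20 (SE, adjusted p = 0.448) in RBM5 KO. TIPIN, the partner of TIMELESS, was at −0.03 (adjusted p = 0.949) in RBM5 KO and 0.03 (adjusted p = 0.885) in RBM5 OE.

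Both cyclins of the G1 to S step had their lowest mean in RBM5 OE. CCNE1, cyclin E1, had 24.97, 16.2 and 16.1 CPM in RBM5 KO, 10.8, 12.2 and 11.5 CPM in RBM5 OE and 14.9, 14.9 and 19.3 CPM in CTRL. RBM5 OE was below all others, at −0.51 ± 0.12 (SE, adjusted p = 0.00703) in RBM5 OE and 0.22 ± 0.19 (SE, adjusted p = 0.614) in RBM5 KO. CCNE2, cyclin E2, had 37.1, 22.9 and 18.1 CPM in RBM5 KO, 16.0, 12.5 and 14.2 CPM in RBM5 OE and 18.0, 14.1 and 29.3 CPM in CTRL. It had the widest range within CTRL of the 55 genes (1.05 in log2 CPM), its RBM5 OE libraries overlapped CTRL, and −0.52 ± 0.22 (SE, adjusted p = 0.0753) in RBM5 OE was not called. E2F1, the transcription factor above many of these genes, was at −0.01 (adjusted p = 0.989) in RBM5 KO and 0.06 (adjusted p = 0.68) in RBM5 OE.

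CHAF1A and CHAF1B, subunits of the complex that places histones behind the fork, were not called. CHAF1B had 29.9, 17.1 and 15.5 CPM in RBM5 KO, 18.4, 20.4 and 18.8 CPM in RBM5 OE and 17.3, 21.2 and 25.8 CPM in CTRL. CHAF1A had 133, 85.8 and 91.4 CPM in RBM5 KO, 103, 109 and 109 CPM in RBM5 OE and 104, 108 and 129 CPM in CTRL. In both genes RBM5 KO replicate 1 was the highest of the 9 libraries, with −0.04 (adjusted p = 0.958) for CHAF1B and −0.14 (adjusted p = 0.716) for CHAF1A in RBM5 KO, and −0.16 (adjusted p = 0.369) and −0.09 (adjusted p = 0.459) in RBM5 OE.

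The direct comparison of RBM5 OE with RBM5 KO sets cells with the cDNA vector against cells with the RBM5 guide, so RBM5 and the vector differ together. Its fit also held the CTRL libraries, which entered the filter, the scaling and the estimate of spread but not the difference itself. It called 18 of 55 genes (32.7%), where 40.1% of the 14754 genes tested were called. Of the set 6 rose (10.9%, against 19.5% of all genes) and 12 fell (21.8%, against 20.6%), with a median of −0.04 against −0.004 for all genes. None passed an absolute log2 fold change of 1 as well, against 8.78% of all genes. The rises were those of CDT1 (0.89, adjusted p = 0.00104), PRIM1 (0.82, adjusted p = 0.0018), RFC4 (0.59, adjusted p = 0.0114), RFC1 (0.36, adjusted p = 0.014), RFC2 (0.34, adjusted p = 0.0364) and ORC5 (0.29, adjusted p = 0.0478). The falls were led by MCM4 (−0.91, adjusted p = 0.00102), CCNE2 (−0.87, adjusted p = 0.0268), FEN1 (−0.81, adjusted p = 0.00219) and PCNA (−0.76, adjusted p = 0.0018), followed by CCNE1, MCM10, POLE2, GINS2, RPA1, POLD2, POLD3 and ORC2. For 19 of 55 genes the groups did not overlap, against 52.6% of all genes, and 7 of the 18 calls held in all 20 alternatives.

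This comparison changed most with the choice of libraries. Without RBM5 KO replicate 1 and CTRL replicate 3, 35 of 55 genes were called, against 46.1% of all genes. Of these 23 were higher (41.8%, against 22.9% of all genes) and 12 lower (21.8%, against 23.3%), and the median was 0.16. Both libraries were set aside because of their level of genes such as these, so these counts are a description, not support for a rise. CDT1 was then at 1.123 (adjusted p = 2.69e-09), PRIM1 at 1.08 (adjusted p = 2.84e-08) and CDC45 at 0.67 (adjusted p = 2.5e-06). With all libraries CDC45 had not been called (0.32, adjusted p = 0.189). MCM4 at −0.66 (adjusted p = 3.37e-07), FEN1 at −0.61 (adjusted p = 3.07e-06) and PCNA at −0.55 (adjusted p = 8.04e-06) stayed lower in RBM5 OE. The signs of these genes therefore did not rest on the 2 libraries, while the direction of the set's median did.

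**Figure D4:**
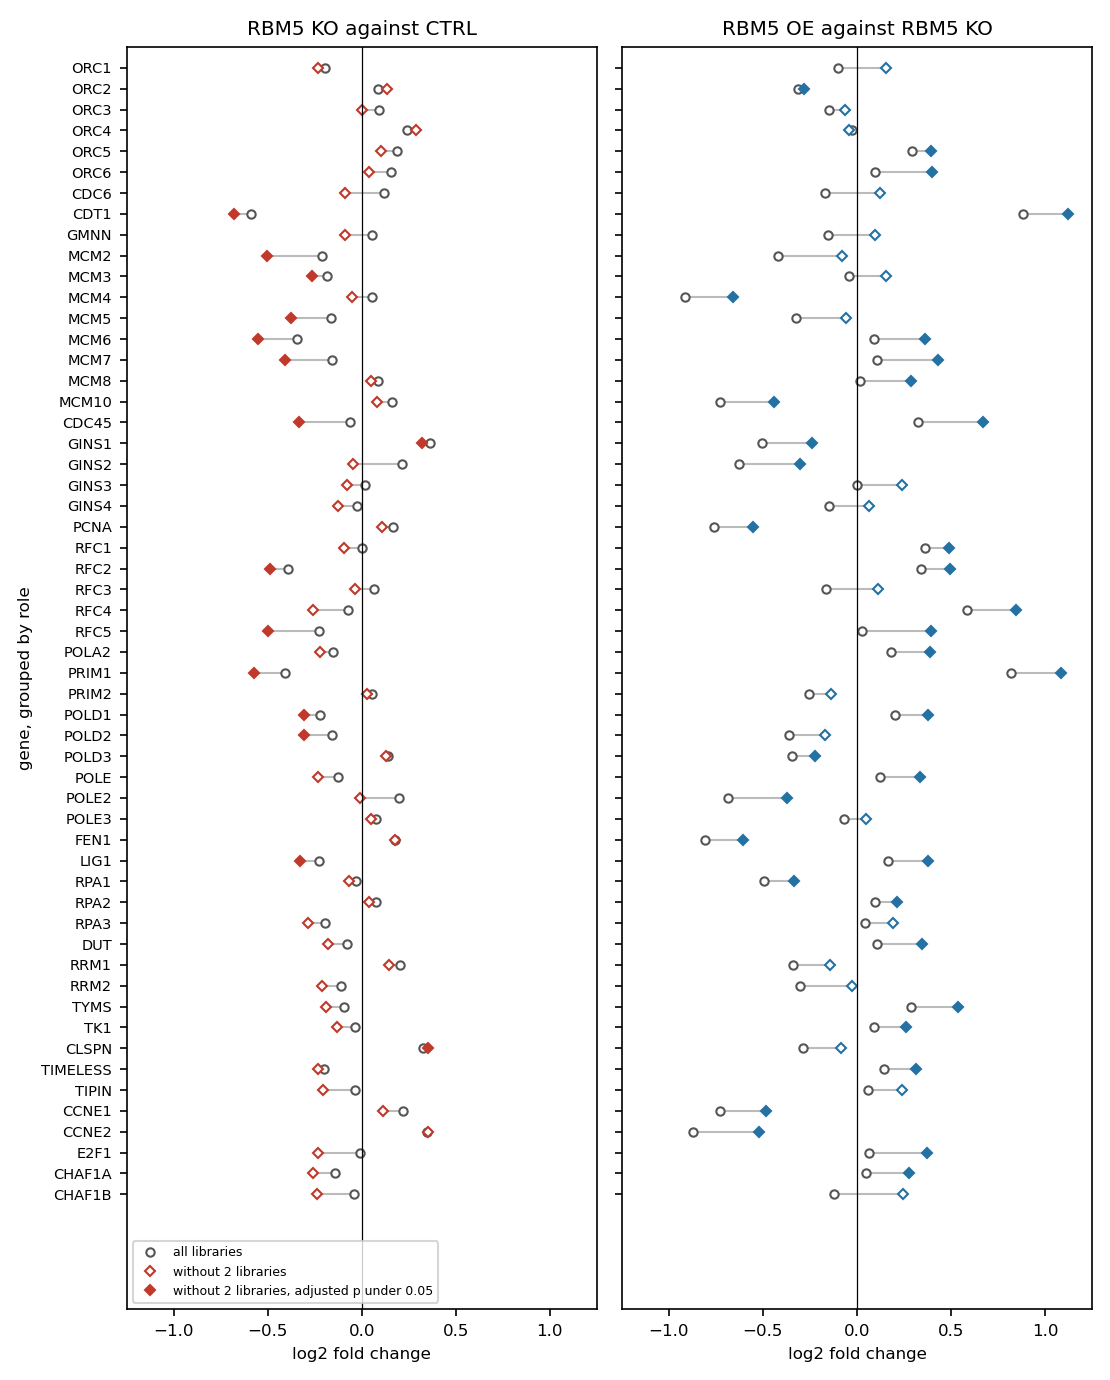
Log2 fold change of each of the 55 genes with all libraries (open circles) and without RBM5 KO replicate 1 and CTRL replicate 3 (diamonds, filled where the adjusted p was under 0.05), in RBM5 KO against CTRL (left) and RBM5 OE against RBM5 KO (right). Most diamonds lie to the left of their circles in RBM5 KO against CTRL, where 15 are filled, and to the right of them in RBM5 OE against RBM5 KO, where 35 are filled.

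Of 75 further replication, E2F-regulated and G1-S genes tested in RBM5 OE against CTRL, 17 rose (22.7%, against 19.8% of all genes) and 14 fell (18.7%, against 20.2%), with a median of 0.07. Both shares were near the background. SKP2, the ubiquitin ligase subunit that removes the inhibitor p27, had 42.3, 26.8 and 28.1 CPM in RBM5 KO, 15.5, 14.0 and 12.8 CPM in RBM5 OE and 29.6, 30.1 and 37.8 CPM in CTRL. RBM5 OE was below all others, at −1.20 ± 0.12 (SE, adjusted p = 2e-05) against CTRL. BRCA2, which acts in homologous recombination, had 47.6, 39.2 and 31.1 CPM in RBM5 KO, 55.8, 62.6 and 55.4 CPM in RBM5 OE and 33.0, 28.3 and 31.3 CPM in CTRL. RBM5 OE was above all others, at 0.91 ± 0.086 (SE, adjusted p = 1.67e-05) against CTRL. CDKN2D, an inhibitor of the G1 kinases CDK4 and CDK6, had 20.5, 22.3 and 22.6 CPM in RBM5 KO, 51.5, 46.4 and 48.7 CPM in RBM5 OE and 30.8, 31.3 and 26.1 CPM in CTRL. It was highest in RBM5 OE and lowest in RBM5 KO with no overlap between any groups, at 0.74 ± 0.087 (SE, adjusted p = 7.41e-05) in RBM5 OE and −0.43 ± 0.11 (SE, adjusted p = 0.0775) in RBM5 KO.

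In RBM5 KO against CTRL, 1 of 76 such genes was called, as higher, against 2.51% of all genes. This was RRM2B, a p53-induced subunit of ribonucleotide reductase, which had 165, 188 and 174 CPM in RBM5 KO, 162, 148 and 136 CPM in RBM5 OE and 136, 125 and 127 CPM in CTRL. RBM5 KO was above all others, at 0.44 ± 0.084 (SE, adjusted p = 0.0329) against CTRL. CDKN2C, another inhibitor of CDK4 and CDK6, had 286, 249 and 252 CPM in RBM5 KO, 317, 300.3 and 308 CPM in RBM5 OE and 327, 355 and 315 CPM in CTRL. RBM5 KO was below all others, at −0.34 ± 0.090 (SE, adjusted p = 0.0898) against CTRL.

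Genes of mitosis act later in the same cycle. In RBM5 OE 25 of 30 mitosis genes rose against CTRL (83.3%, against 19.8% of all genes), 0 fell, and the median was 0.60, beside −0.09 for the 55 replication genes. CENPE, a kinetochore motor, had 30.0, 21.0 and 17.6 CPM in RBM5 KO, 39.6, 40.2 and 35.7 CPM in RBM5 OE and 14.2, 13.7 and 16.4 CPM in CTRL. Its value in RBM5 OE against CTRL was 1.38 ± 0.095 (SE, adjusted p = 2.6e-06). NDC80, a kinetochore subunit, had 23.1, 21.6 and 16.8 CPM in RBM5 KO, 41.8, 40.7 and 40.5 CPM in RBM5 OE and 18.9, 16.2 and 19.8 CPM in CTRL. Its value in RBM5 OE against CTRL was 1.17 ± 0.089 (SE, adjusted p = 4.75e-06). CENPF, a kinetochore-associated protein, had 160.1, 134 and 113 CPM in RBM5 KO, 174, 186 and 164 CPM in RBM5 OE and 96.3, 90.8 and 105 CPM in CTRL. It was at 0.85 ± 0.077 (SE, adjusted p = 1.23e-05) in RBM5 OE and 0.48 ± 0.13 (SE, adjusted p = 0.0876) in RBM5 KO. In each of these the RBM5 OE libraries were above all libraries of both other groups. The difference between the lists was not tested. Without CTRL replicate 3, 28 of 30 mitosis genes rose, against 20.7% of all genes, and 0 fell.

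In RBM5 KO 0 of 30 mitosis genes were called by edgeR's quasi-likelihood test, with 9 at an unadjusted p under 0.05 (16.8% of all genes) and a median of 0.17. Without the 2 libraries that stand apart 6 of 30 were called higher and 0 lower, against 6.94% and 6.68% of all genes. CDC20, an activator of the anaphase-promoting complex, had 166, 116 and 119 CPM in RBM5 KO, 99.6, 105 and 110.0 CPM in RBM5 OE and 78.3, 87.7 and 93.4 CPM in CTRL. It was at 0.63 ± 0.14 (SE, adjusted p = 0.0546). PTTG1, securin, had 44.5, 41.2 and 41.4 CPM in RBM5 KO, 48.9, 50.3 and 51.0 CPM in RBM5 OE and 28.3, 29.8 and 36.7 CPM in CTRL. It was at 0.42 ± 0.11 (SE, adjusted p = 0.0997). In both the RBM5 KO libraries were all above the CTRL libraries.

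Promoter sequence was not used to choose the set. Of the 55 genes 48 have an entry in the RefSeq promoter table (GRCh38.p14, a window around each start), with 65 promoters. Each was searched on both strands for TTTCCCGC, TTTGGCGC, TTTGCCGC and TTTCGCGC, forms of the site that E2F factors bind, some of which can overlap. At least 1 form was present in 23 of the 65 promoters (35.4%), against 3.31% of all 35116 promoters of the table, 19% of those of the other pathway genes and 10.3% of those of the mitosis genes. CCAAT, the box bound by NF-Y, was in 52.3% of the set's promoters and 34.6% of all.

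Stretches upstream of 4 genes are shown because they place such matches in genes called in RBM5 OE in either direction, MCM6, PCNA and GINS2 among the falls and CDT1 among the rises. Each runs 5′ to 3′ on the gene's strand, with capitals for the match on either strand. MCM6 runs from 200 to 61 bases before the start (chr2:135876504-135876643, minus strand), and PCNA (chr20:5126623-5126742, minus strand), GINS2 (chr16:85688955-85689074, minus strand) and CDT1 (chr16:88803669-88803788, plus strand) from 120 bases before it to the base before it.
MCM6: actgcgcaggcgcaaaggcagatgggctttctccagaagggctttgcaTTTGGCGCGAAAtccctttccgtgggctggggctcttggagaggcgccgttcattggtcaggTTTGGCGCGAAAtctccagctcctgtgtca
PCNA: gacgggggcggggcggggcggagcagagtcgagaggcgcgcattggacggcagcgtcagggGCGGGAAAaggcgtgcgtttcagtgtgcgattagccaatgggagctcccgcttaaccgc
GINS2: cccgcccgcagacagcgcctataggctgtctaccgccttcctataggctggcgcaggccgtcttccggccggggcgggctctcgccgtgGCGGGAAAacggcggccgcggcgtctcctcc
CDT1: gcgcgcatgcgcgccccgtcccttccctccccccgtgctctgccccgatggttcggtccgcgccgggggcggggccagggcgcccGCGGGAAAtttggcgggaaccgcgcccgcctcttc

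In MCM6 the same 12 letters occur 2 times and hold TTTGGCGC with the reverse complement of TTTCGCGC overlapping it, and the match in the other 3 genes is the reverse complement of TTTCCCGC. In RBM5 OE against CTRL a match was present in 5 of the 11 genes called lower with an entry, 1 of the 6 called higher and 17 of the 31 not called, a difference that was not tested. The median log2 fold change was −0.05 over the 23 genes with a match and −0.09 over the 25 without.

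Counting did not use the strand, so a gene that shares exon bases with an abundant neighbour can share its reads. Shared bases were taken from a gene annotation that holds genes absent from the counts. They can therefore differ from those of the gene models used for counting. Of the set 13 genes overlap the exons of a gene with more than 10% of their count. Among the called genes these were GINS2 (with GSE1), RFC4 (EIF4A2), PRIM1 (NACA), FEN1 (FADS2), RPA1 (SMYD4) and CCNE2 (INTS8). In RBM5 OE against CTRL the neighbours GSE1, EIF4A2, NACA, FADS2 and SMYD4 were between −0.10 and 0.07 on the log2 scale and none was called, whereas INTS8 fell with a log2 fold change of −0.40 (adjusted p = 0.00194) and shares 1629 exon bases with CCNE2. In RBM5 OE against RBM5 KO, the comparison in which CCNE2 was called, INTS8 was at −0.74 (adjusted p = 7.52e-05), SMYD4 was lower together with RPA1 at −0.27 (adjusted p = 0.031), and GSE1 was higher at 0.22 (adjusted p = 0.0248) while GINS2 was lower. The values of CCNE2 are uncertain because of the shared bases, and how far shared reads set those of RPA1 was not tested.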

How the data were processed

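RNA of MOLM13 cells (9 libraries) was depleted of ribosomal RNA and sequenced in pairs. According to the labels, the authors trimmed reads (Trim Galore), aligned them to hg19 (GRCh37.p13) with STAR 2.7.1a, and used GATK 4.1.2.0 and RSEM, without strand. The study's methods name Salmon and DESeq2 instead. Deposited by the authors per gene are expected counts (RSEM estimates, not normalized) and TPM (scaled by transcript length and library total). A set of 92 spike-in entries, at 0 in every library, was left out.

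The members and lists were chosen with earlier results of these data known, so counts over them are descriptions. The G1-S and replication members, other pathway genes, mitosis genes and markers were matched by symbol. Expected counts were rounded and fitted with edgeR 4.0.16 (R 4.3.3; filterByExpr, TMM, quasi-likelihood F-test, Benjamini-Hochberg). Each comparison against CTRL used its own 6 libraries, and RBM5 OE against RBM5 KO used all 9. Log2 CPM used a prior count of 2. The fits were tried on counts simulated from the fitted model. No simulated libraries deviated together, so that trial does not cover the libraries that stand apart. Alternatives were DESeq2 1.42.0, limma-voom (limma 3.58.1), RLE size factors, library totals, no filter, CPM of at least 1 in 3 libraries, other sets of libraries, limma on log2(TPM + 1) and log2(TPM + 0.1), a replicate term, each library left out, both libraries that stand apart left out, and an added absolute log2 fold change of 1.

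Values in every library are given, per role group, for the gene with the smallest p in RBM5 OE against CTRL and the one with the largest absolute fold change in RBM5 KO against CTRL. They are also given for genes called against the main direction of a comparison, the 5 with the widest range within CTRL, and the 3 smallest p per comparison against CTRL in the other pathway and mitosis lists. MCM2 and PCNA were added after their values were seen. Promoters came from RefSeq GRCh38.p14 and gene positions are those of GRCh37.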

Additional observations from a re-analysis of the deposited data

How the results depend on the processing

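Of the log2 fold changes of single genes recomputed under the alternatives, none that was called reversed. In RBM5 KO against CTRL, 819 of 935 values kept their sign and call, 28 became called and 88 changed sign without a call. In RBM5 OE against CTRL, 781 of 880 kept both, 31 lost and 18 gained a call and 50 changed sign without one. In RBM5 OE against RBM5 KO, 937 of 1100 kept both, 65 lost and 45 gained a call and 53 changed sign without one. The share of all genes called also moved, in RBM5 KO against CTRL from 2.51% to 13.6% without both libraries that stand apart. It is given below for some settings. Elsewhere the counts cannot tell a shift of the set from one of all genes.

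For RBM5 KO against CTRL, genes called lower numbered 1 with DESeq2 and 1 with no filter on low counts. Without both libraries that stand apart 2 genes were called higher (3.64%, against 6.94% of all genes) and 13 lower (23.6%, against 6.68%). Leaving out 1 library at a time gave 0 to 11 genes called lower and medians of −0.21 to 0.085, with −0.21 and 11 without RBM5 KO replicate 1.

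For RBM5 OE against CTRL, all 9 libraries in 1 fit gave 3 genes called higher. The added fold threshold gave 0 higher and 0 lower, where 5.89% of all genes passed it. Leaving out 1 library gave 4 to 11 called higher. The 11 were without CTRL replicate 3 (20%, against 20.7% of all genes), where the median turned to 0.01. Leaving out both libraries that stand apart is the same fit as leaving out CTRL replicate 3 here and was not run again.

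For RBM5 OE against RBM5 KO, the median was 0.16 and 23 genes were called higher (41.8%, against 22.9% of all genes) without both libraries that stand apart. Limma on log2(TPM + 1) and on log2(TPM + 0.1) each gave 7 called lower. The added fold threshold gave 0 higher and 0 lower, where 8.78% of all genes passed it. Library totals alone gave a median of 0.01. Leaving out 1 library gave medians of −0.14 to 0.15, 2 to 21 called higher and 5 to 16 called lower. Without RBM5 KO replicate 1 the values were 0.15, 21 and 8, without RBM5 KO replicate 3 there were 2 called higher, without RBM5 OE replicate 1 or RBM5 OE replicate 2 there were 3 higher and 7 lower, and without RBM5 OE replicate 3 there were 5 lower.

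Same-numbered libraries did not deviate together (correlations across genes of −0.242 to 0.099), while RBM5 KO replicate 1 and CTRL replicate 3 had a correlation of 0.355. These values give no sign of pairing by number, but 3 libraries per group cannot exclude it. With a replicate block, 0 genes were called higher and 0 lower in RBM5 KO against CTRL (median −0.04), 6 higher and 13 lower in RBM5 OE against CTRL (median −0.08), and 4 higher and 11 lower in RBM5 OE against RBM5 KO (median −0.03). The cause of these differences between settings was not tested.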
